A study of Mus musculus with 12 samples.

Results

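The effect of GW3965, a synthetic agonist of the liver X receptors (LXR), was estimated over both backgrounds in which it was applied, that is, with and without CT99021, an inhibitor of glycogen synthase kinase 3 beta. All 12 of the 12 libraries entered the comparison, 6 with GW3965 against 6 without. The RNA came from neurospheres, free-floating clusters of dividing neural cells, grown out of ventral midbrain tissue of E11.5 embryos of the CD-1 strain. Before exposure the spheres had been expanded for 3 days. The control group received the vehicle DMSO, the others GW3965, CT99021 or the pair of compounds, each for 5 h in N2 medium and with 3 libraries numbered 1 to 3. The sources used here give neither doses nor the number of embryos behind a library. The labels do not say that the libraries of a group were separate cultures, so the p-values cover only how far these libraries spread, and that spread may be technical. The single comparison of 6 with 6 asks whether LXR-responsive genes come up that 3 libraries against 3 do not show.

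LXR alpha (Nr1h3) and LXR beta (Nr1h2) are nuclear receptors that bind oxysterols and sit on DNA as partners of a retinoid X receptor (RXR). Agonists turn on genes that export cholesterol from cells, that make and desaturate fatty acids and that remodel phospholipids. Oxysterols and LXR are known to take part in the development of ventral midbrain dopaminergic neurons.

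Gene totals ran from 9646424 to 21314093 counts a library, and levels below are CPM, counts scaled to a common library size with the scaling factors of edgeR. The libraries carried neural progenitor genes, with means of 616 CPM for Nes and 158 CPM for Sox2. The midbrain gene En1 was lower, at 107 CPM, as were the floor plate genes Lmx1a, at 23.0 CPM, and Foxa2, at 14.96 CPM. Th, the defining enzyme of dopaminergic neurons, was at 0.86 CPM. Libraries with the same number deviated together from their group means (18 pairs, r = 0.496 to 0.828), so the replicate number was a term of the fit beside the presence of GW3965 and of CT99021. In CT99021 replicate 1, Lars2 took 7.95% of gene counts, against 0.0336% to 0.142% in the other libraries.

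Over both backgrounds 7 genes rose with GW3965 and 0 fell, of 15608 tested (0.0448% called, edgeR's quasi-likelihood test with Benjamini-Hochberg adjustment at 0.05). They were the sterol exporters Abca1 and Abcg1, the lipogenic regulator Srebf1, the fatty acid desaturase genes Scd1, Scd2 and Scd3, and the phospholipid remodelling enzyme Lpcat3. All 7 were higher in 6 of 6 pairs of libraries that shared a number and a background. Among all genes tested, 322 were higher in 6 of 6 pairs (2.06%) and 409 were lower (2.62%). At an unadjusted p under 0.05 edgeR placed 1139 genes (7.30%), 621 of them higher (3.98%) and 518 lower (3.32%). No gene had all 6 libraries with GW3965 below the 6 without. In bulk RNA, fewer cells of a type and less RNA per cell cannot be told apart. Without the replicate term the count was 2, Srebf1 and Abcg1 (0.0128%), and 136 genes had an unadjusted p under 0.05 (0.871%).

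**Figure D1:**
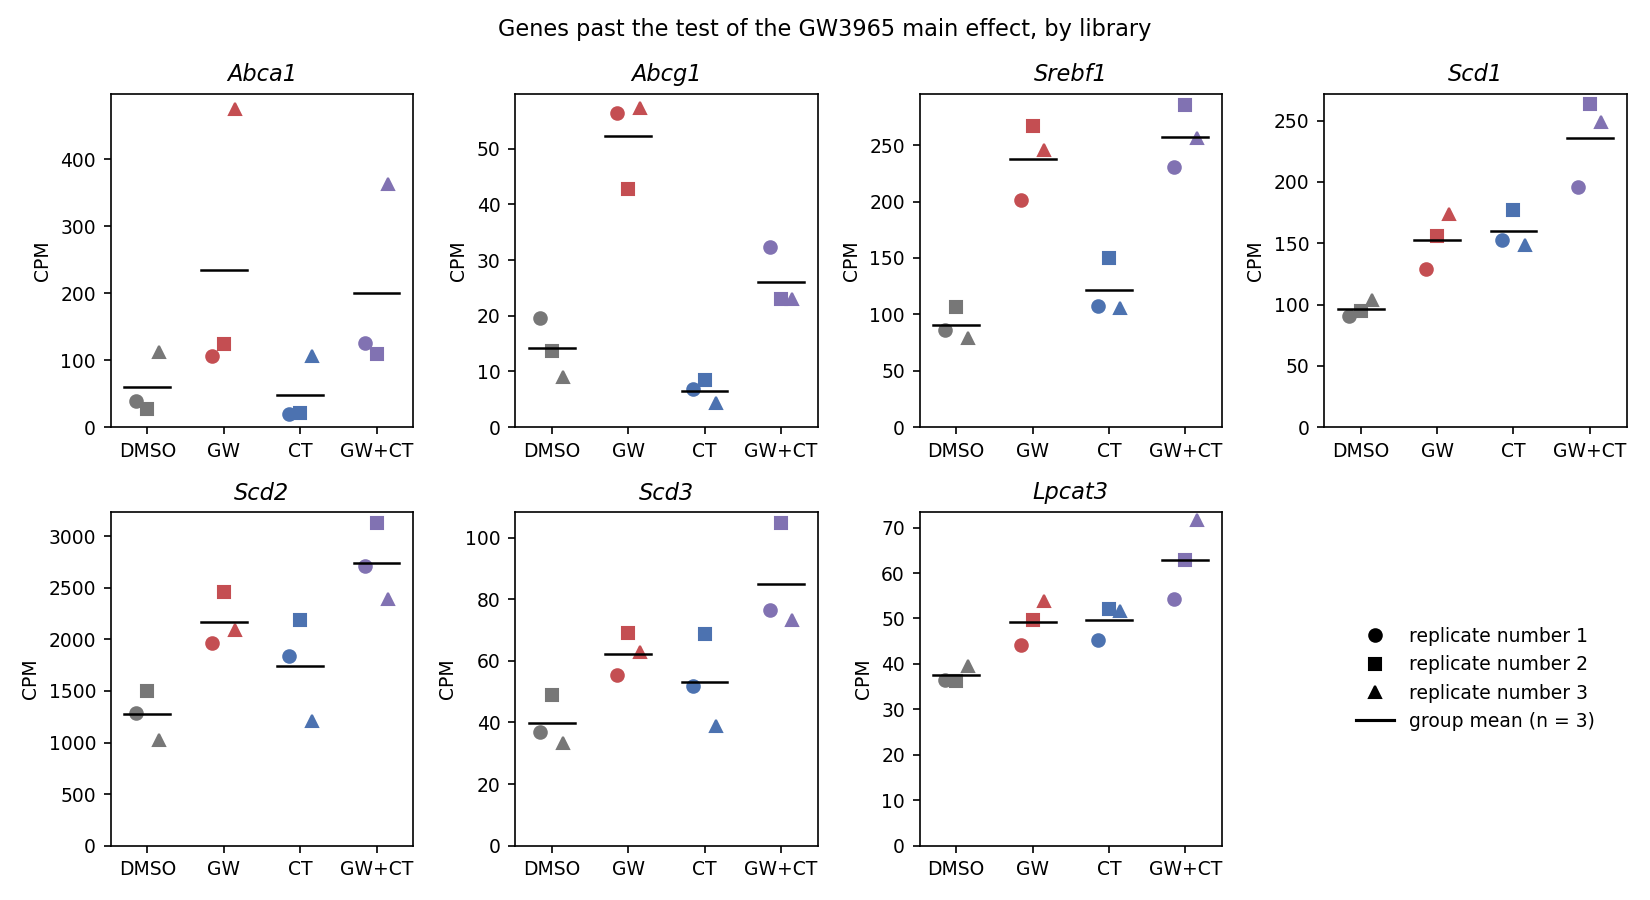
CPM of the genes past the test in each of the 12 libraries, on linear axes from 0, by group (DMSO, GW, CT and GW+CT, where GW is GW3965 and CT is CT99021) and with a marker for the replicate number and a line at the mean of the 3 libraries. Abca1 is higher with GW3965 within each number, while its libraries numbered 3 lie above the others with and without GW3965, from 106 to 475 CPM.

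The exporters had the largest increases. Abca1, which loads cholesterol onto apolipoproteins at the cell surface, is listed at position 53043660 of chromosome 4 (mm9, minus strand). It had 39.1, 27.3 and 113 CPM in control replicates 1, 2 and 3 and 106, 123 and 475 CPM with GW3965. With CT99021 alone it had 19.4, 20.5 and 106 CPM, and with both compounds 126, 110 and 363 CPM. The ranges with and without GW3965 overlapped, since the libraries numbered 3 stood higher in every group, but within each number the level with GW3965 was the higher one. The log2 fold change over both backgrounds was 2.07 ± 0.13 (SE), or 4.20-fold, with an edgeR adjusted p of 2.92e-05. Fitted without the replicate term, its log2 fold change was 2.01 and its adjusted p was 0.9999.

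Abcg1, which moves sterols within the cell and out to lipoproteins, is listed at position 31194538 of chromosome 17 (plus strand). Control replicates 1, 2 and 3 had 19.7, 13.8 and 9.04 CPM and those with GW3965 56.5, 42.9 and 57.3 CPM. With CT99021 alone the values were 6.88, 8.43 and 4.36 CPM, and with both compounds 32.4, 23.0 and 23.1 CPM. All 6 libraries with GW3965 lay above all 6 without, a pattern seen in 4 of the 15608 genes (0.0256%: Abcg1, Srebf1, Acsl3 and Atp2b1). The log2 fold change was 1.95 ± 0.16, or 3.85-fold (edgeR adjusted p = 3.57e-04). Per kilobase, the mean level over the 12 libraries was 13.1 CPM for Abca1 and 4.19 CPM for Abcg1.

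Srebf1 encodes SREBP-1, the transcription factor that drives fatty acid synthesis genes, and is listed at position 60012590 of chromosome 11 (minus strand). It had 86.1, 106 and 78.8 CPM in control replicates 1, 2 and 3 and 201 CPM, 267 CPM and 246 CPM with GW3965. Under CT99021 alone it had 108, 150.3 and 106 CPM, and under both compounds 231, 286 and 256 CPM. The groups with and without GW3965 did not overlap. It rose by 1.25 ± 0.07 on the log2 scale, or 2.37-fold (edgeR adjusted p = 2.92e-05), and passed in all 25 other fits of the main effect (other tools, factors, filters, terms or left-out libraries), as did Abcg1.

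The start regions of Abca1 and Srebf1 are printed because these are the genes with the smallest p-values. RefSeq promoter windows (GRCm38.p6, 250 bases before a start) were looked up for the 7 called genes and for Acsl3, Scd4, Rnf145, Fasn and Mylip, 12 in all, of which 9 had an entry. A direct repeat of AGGTCA with 4 bases between, the textbook site of the LXR and RXR pair, was searched on both strands as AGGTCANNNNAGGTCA. With up to 2 mismatches it was in 843 of 32851 windows (2.566%) and, of the 9 genes, in that of Acsl3. Another pattern, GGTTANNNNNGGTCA, was read from the windows of these genes after they had been seen, so its presence in them is no test. It is a looser form of the direct repeat with the same 4 bases between. The first base of each repeat is free and the first repeat has a further letter changed. A window without the direct repeat at up to 2 mismatches can therefore still hold this form. In Acsl3 both patterns match the same stretch. Its exact form is in 15 of the windows (0.04566%). Capitals mark it below, where it lies on the strand opposite to the one printed. In Abca1 (chr4:53159896-53160145, minus strand) it spans bases 67 to 53 before the start, and in the third Srebf1 window (chr11:60210472-60210721, minus strand) bases 182 to 168.
Abca1: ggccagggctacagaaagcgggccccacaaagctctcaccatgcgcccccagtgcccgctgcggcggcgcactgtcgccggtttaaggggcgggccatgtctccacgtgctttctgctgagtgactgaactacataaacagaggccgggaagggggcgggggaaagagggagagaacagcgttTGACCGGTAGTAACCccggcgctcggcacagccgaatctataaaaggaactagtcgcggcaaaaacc
Srebf1: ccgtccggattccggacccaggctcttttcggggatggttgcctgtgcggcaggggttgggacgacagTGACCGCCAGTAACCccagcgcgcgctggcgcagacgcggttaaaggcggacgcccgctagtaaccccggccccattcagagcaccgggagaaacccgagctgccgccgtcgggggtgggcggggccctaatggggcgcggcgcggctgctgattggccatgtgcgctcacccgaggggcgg

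Read along the motif's own strand, exact matches were also in the windows of Fasn (225 to 211 bases before the start) and Acsl3 (112 to 98), and a match with 1 mismatch was in the third window of Rnf145 (91 to 77). They are shown together so that the shared letters can be seen, with the whole match in capitals.
Abca1: GGTTACTACCGGTCA
Srebf1: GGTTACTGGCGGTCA
Fasn: GGTTACTACCGGTCA
Acsl3: GGTTACTATGGGTCA
Rnf145: GGTTACTACAGTTCA

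The Abca1 and Fasn matches are identical. The form was read from windows of genes near the top by p: Abca1 and Srebf1, which passed the test, and Fasn and Acsl3, which did not. Their values therefore say nothing about it. Apart from these 4, exact windows belong to 8 genes, of which Prrg4, Tmem150c and Tmco4 were tested, and 0 of the 3 rose. Their median log2 fold change was 0.15, and they ranked 21, 8715 and 10442 of the 15608 genes by p. Of 89 tested genes with a window 1 mismatch away and none exact, 0 rose and the median was 0.01. A match is a stretch of letters and was not tested as a binding site.

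Stearoyl-CoA desaturases put a double bond into newly made saturated fatty acids, and their genes lie side by side on chromosome 19. Scd2, the form typical of brain, was by far the most abundant, at 357 CPM per kilobase against 32.7 for Scd1. Without GW3965 it ran from 1029 CPM to 2186 CPM with a median of 1394, and with GW3965 from 1966 to 3130 with a median of 2425. Control replicates 1, 2 and 3 had 1289, 1499 and 1029 CPM and their GW3965 counterparts 1966, 2462 and 2091 CPM. Over all 12 libraries the ranges with and without GW3965 overlapped, since CT99021 replicate 2, at 2186 CPM, lay above the lowest library with GW3965. Scd2 rose by 0.73 ± 0.08 on the log2 scale, or 1.66-fold (edgeR adjusted p = 0.00448).

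Scd1 went from a median of 126 CPM (90.8 to 177) without GW3965 to 185 CPM (129 to 263) with it. It rose by 0.60 ± 0.07, or 1.52-fold (edgeR adjusted p = 0.00448), with pair ratios between 0.36 and 0.75. Fitted without the libraries numbered 3, Scd1 had 0.53 and no longer passed, and its adjusted p over the 25 other fits reached 0.294. Scd3 went from a median of 44.0 CPM (33.5 to 68.6) to 71.2 CPM (55.4 to 105) and rose by 0.67 ± 0.08 (edgeR adjusted p = 0.00448). Counts of Scd3 were 2.81% to 3.35% of those of Scd2 in every library, and those of Scd4 1.15% to 1.505%. The table does not say how reads shared by near-identical copies were counted, so Scd3 is uncertain as a gene of its own. Summed with Scd1, Scd2, Scd4 and Mir5114, a step chosen after the data were seen, the locus rose 1.65-fold (log2 fold change 0.72 ± 0.08, edgeR adjusted p = 0.0038), and the count of called genes was then 4.

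Lpcat3, which puts polyunsaturated chains into membrane phospholipids, had the smallest increase. It is listed at position 124613021 of chromosome 6 (plus strand). Its control replicates 1, 2 and 3 had 36.5, 36.3 and 39.6 CPM and the libraries with GW3965 44.3, 49.7 and 53.9 CPM. CT99021 alone gave 45.3, 52.1 and 51.6 CPM, and the pair of compounds 54.3, 63.0 and 71.7 CPM. Across backgrounds the ranges with and without GW3965 overlapped. It rose by 0.36 ± 0.05, or 1.29-fold (edgeR adjusted p = 0.0403). The call is close to the threshold. It held in 8 of the 25 other fits and in 1 of the 12 fits that left out a library (GW3965+CT99021 replicate 1), while the log2 fold change stayed between 0.31 and 0.39.

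**Figure D2:**
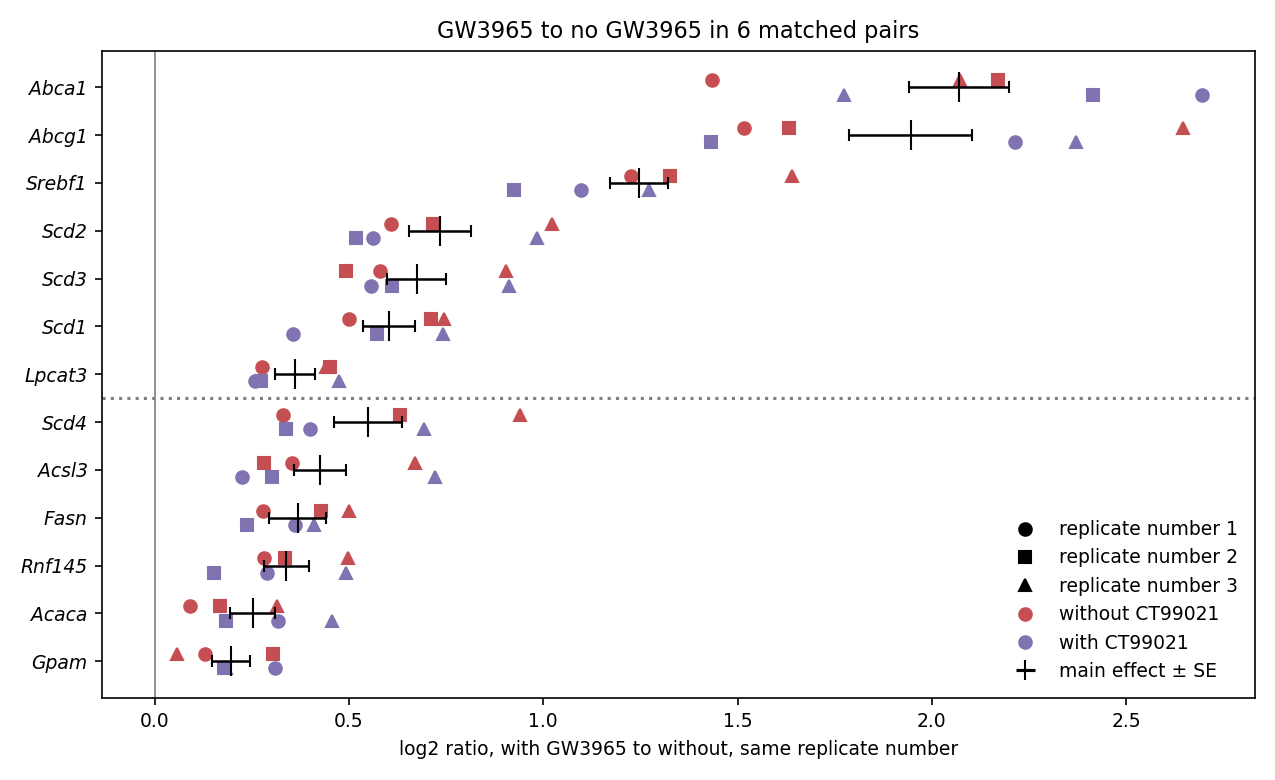
Log2 ratio of CPM with to without GW3965 (x axis, prior count of 2) in the 6 pairs of libraries that share a replicate number, for genes past the test and genes next to the threshold. Colour gives the background, the marker the number and the black cross the fitted log2 fold change ± SE; every pair of the called genes lies above 0, from 0.26 for Lpcat3 to 2.70 for Abca1.

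The genes next in line did not pass, and those not in the naming rule are given because of their rank. Acsl3, an acyl-CoA synthetase, had 103 to 125 CPM without GW3965 (median 116) and 132 to 206 CPM with it (median 146), with no overlap between the groups. Its log2 fold change was 0.43 ± 0.07 (edgeR adjusted p = 0.0958). Scd4 had 0.55 ± 0.09 (0.0958), and Rnf145, which encodes a membrane ubiquitin ligase of sterol metabolism, had 0.34 ± 0.06 (0.151). Mir5114, listed between Scd2 and Scd4, had 0.95 ± 0.17 (0.176), and 1 pair had a log2 ratio of 1.67 against 0.64 to 0.91 in the others. Its counts were 1.60% to 4.003% of those of Scd2, and like Scd3 both Scd4 and Mir5114 are uncertain as genes of their own. Fasn, the fatty acid synthase, had a median of 531 CPM (410 to 990) without and 711 CPM (580 to 1167) with GW3965. Its log2 fold change was 0.37 ± 0.07 (edgeR adjusted p = 0.43). Acaca, acetyl-CoA carboxylase, had 0.25 ± 0.06, and Gpam, which starts glycerolipid synthesis, 0.20 ± 0.05 (both 0.659). Each of these 7 genes was higher in 6 of 6 pairs. With DESeq2, Acsl3, Scd4, Mir5114, Rnf145 and Fasn passed as well, for 12 genes in all. The lowest p among genes with a negative log2 fold change belonged to Bcl9l, a coactivator of beta-catenin, at -0.21 ± 0.04 (edgeR adjusted p = 0.659, lower in 6 of 6 pairs).

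Of 22 listed LXR target genes 15 were tested, and 4 rose (Abca1, Abcg1, Srebf1 and Lpcat3) with 0 falling. The median log2 fold change of the 15 was 0.04, against -0.00248 over all genes tested. Members with mainly intestinal or hepatic roles, such as Abcg5, Abcg8 and Cyp7a1, were under the filter on low counts. Mylip, a ubiquitin ligase, went from a median of 11.3 CPM to 17.1 CPM, with 0.52 ± 0.14 (edgeR adjusted p = 0.659) and a higher level in 6 of 6 pairs. Apoe, the main apolipoprotein of brain, ran from 111 to 144 CPM without and from 97.0 to 149 CPM with GW3965, with -0.04 ± 0.07. Pltp, a phospholipid transfer protein, had 0.06 ± 0.09, Lpl, a lipase, had -0.26 ± 0.17, and Smpdl3a, a phosphodiesterase, had 0.04 ± 0.10. Apoc1 (-0.46 ± 0.35) and Mlxipl (-0.14 ± 0.38) had low levels, with means of 0.84 CPM and 0.70 CPM. The remaining members were Mertk (-0.07 ± 0.18), Eepd1 (-0.04 ± 0.18) and Arl4c (-0.03 ± 0.06). None of these genes passed the test.

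Of the receptors, Nr1h2 had a mean of 18.5 CPM per kilobase over the libraries and Nr1h3 1.09. Nr1h2 ran from 35.98 to 44.5 CPM without and from 30.1 to 46.2 CPM with GW3965 (-0.10 ± 0.07, edgeR adjusted p = 0.684). Nr1h3, itself a target, had medians of 0.91 and 2.45 CPM (0.82 ± 0.27, edgeR adjusted p = 0.659), and the ranges overlapped. Rxra had -0.08 ± 0.05. In the list of receptors, RXR partners and coregulators 0 of 14 passed. The median was 0.07, and without the libraries numbered 3 it was -0.02, with 10 of the 14 negative.

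Fatty acid synthesis, elongation and desaturation had 18 tested genes. Scd1 and Scd2 rose and 0 fell, 11 had a positive log2 fold change, 6 were higher in 6 of 6 pairs and the median was 0.06. Elovl6, an elongase, stood at -0.17 ± 0.09, and Acly, which makes cytosolic acetyl-CoA, at -0.15. Glycerolipid and phospholipid genes (20 tested) had 1 member that rose, Lpcat3, 0 that fell and a median of 0.08. That list's median was 0.00 in the libraries numbered 1 and 2, from a fit with a term for number 3.

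Cholesterol synthesis and uptake had 24 tested genes, none past the test, and Hmgcs1, also listed, had no row under that name. All 24 had a negative log2 fold change, 9 of them at an unadjusted p under 0.05, and the median was -0.16. Negative values were also found for 7922 of the 15608 genes. Scaled by library totals only, 23 of the 24 were negative. Sqle, squalene epoxidase, had 180.1 to 274 CPM without and 119 to 246 CPM with GW3965 (-0.27 ± 0.08, edgeR adjusted p = 0.659). It was lower in 6 of 6 pairs and was picked after its values were seen. The list's median log2 ratio in pairs 1, 2 and 3 was 0.03, -0.05 and -0.42 without CT99021 and -0.25, -0.10 and -0.44 with it, and the median was -0.08 without the libraries numbered 3. Intracellular sterol handling (20 tested) had 0 members past the test and a median of 0.02 (-0.01 without GW3965+CT99021 replicate 2).

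**Figure D3:**
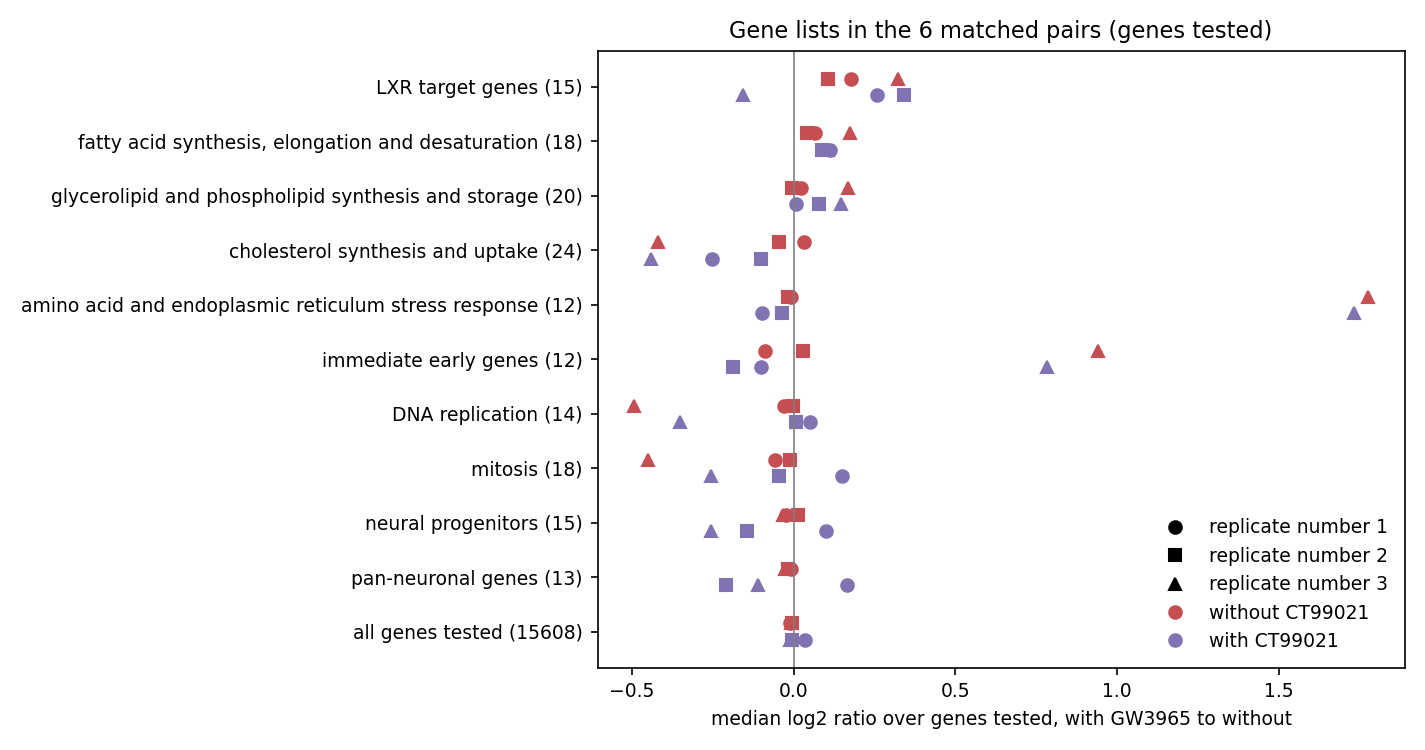
Median log2 ratio of CPM with to without GW3965 over the tested members of each gene list (x axis), in each of the 6 matched pairs; colour is the background, the marker is the replicate number and the count of tested genes is in brackets. The stress response list lies at 1.78 and 1.73 in the pairs numbered 3 and between -0.10 and -0.01 in the other 4.

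Taken apart by background, GW3965 against control and GW3965+CT99021 against CT99021 each called 3 genes (0.0192% each), in both cases Srebf1, Abca1 and Abcg1. At an unadjusted p under 0.05 there were 386 genes without (2.47%) and 1017 with CT99021 (6.52%). The main effect thus added Scd1, Scd2, Scd3 and Lpcat3. Passing over both backgrounds but in neither alone favours genes with like values in both, so their likeness is no test. Each of the added genes had a log2 fold change of like size in the 2 backgrounds. For Scd2 it was 0.79 without and 0.68 with CT99021 (edgeR adjusted p = 0.135 and 0.334). For Scd1 it was 0.65 and 0.55 (0.135 and 0.352), for Scd3 0.66 and 0.69 (0.351 and 0.293), and for Lpcat3 0.39 and 0.34 (0.886 and 0.734). The median SE of a log2 fold change fell from 0.128 and 0.129 within the backgrounds to 0.0905 in the main effect, on 7 residual degrees of freedom.

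Srebf1 had 1.40 without and 1.10 with CT99021, Abca1 1.89 and 2.26, and Abcg1 1.92 and 1.98. Their differences between backgrounds were -0.30 ± 0.12, 0.37 ± 0.24 and 0.06 ± 0.33, and none passed the test of the interaction (edgeR adjusted p = 0.999 for each). Over all genes that test called 0 of 15608 (523, or 3.35%, at an unadjusted p under 0.05), as did DESeq2 and limma-voom. The median SE of the interaction was 0.182. Leaving out number 3 and GW3965+CT99021 replicate 2 keeps a single library with both compounds. The counts from that fit are listed in the last section but are not read as results. Over the 2525 genes at 100 CPM or more, the log2 fold changes in the 2 backgrounds correlated with r = 0.365, and over all 15608 with r = 0.167. This describes points from separate libraries that share replicate numbers.

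**Figure D4:**
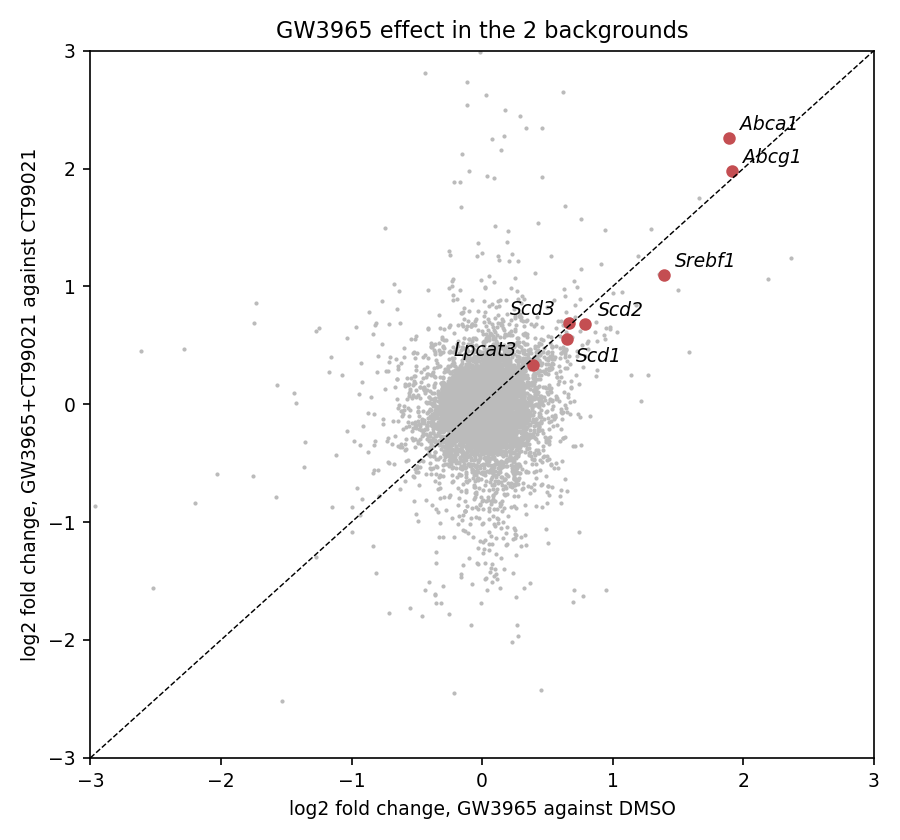
Log2 fold change of GW3965 without CT99021 (x axis) and with it (y axis) for 14634 genes at 1 CPM or more, with the line of equal effects; 12 genes lie beyond the axes. The 7 called genes (red) lie near the line, from 0.39 and 0.34 for Lpcat3 to 1.89 and 2.26 for Abca1. They were called over both backgrounds together, so their nearness to the line is no test.

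CT99021 shifted several of these genes as well. In the same additive fit its effect was -1.05 for Abcg1 (edgeR adjusted p = 4.71e-04), 0.68 for Scd1, 0.38 for Scd2, 0.38 for Lpcat3 and 0.58 for Fasn, and 0.26 for Srebf1 (0.0162). Axin2, a direct target of beta-catenin, checks the CT99021 labels and had 1.70 with CT99021 and -0.15 ± 0.09 with GW3965. Of 16 Wnt target genes 0 passed with GW3965, and their median was -0.14 (-0.03 without the libraries numbered 3). In a fit with a term for number 3, Axin2 had -0.04 ± 0.09 with GW3965 in numbers 1 and 2.

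The libraries numbered 3 answered in a further set of genes. In a fit with a term for GW3965 in number 3, chosen after the data were seen, 465 genes had an effect there that differed from numbers 1 and 2 (2.98%), 372 of them higher (2.38%) and 93 lower (0.596%). A test over all 3 numbers called 145 genes (0.929%). The stress response list (amino acid and endoplasmic reticulum stress), genes through which cells answer amino acid shortage and unfolded protein, had all 12 of its genes among the 372. Of the 7 genes called in the main effect, 0 were among the 465, which says little at a share of 2.98%. Abcg1, Scd2, Scd3 and Srebf1 had added effects in number 3 of 0.86 ± 0.23, 0.41 ± 0.12, 0.35 ± 0.12 and 0.31 ± 0.13. Each had an unadjusted edgeR p under 0.05, as did 2813 of the 15608 genes in either direction. Abca1, Scd1 and Lpcat3 did not (-0.22 ± 0.26, 0.21 ± 0.13 and 0.14 ± 0.10). Acsl3 had an added log2 effect of 0.40 ± 0.07 in number 3 (edgeR adjusted p = 0.014). In numbers 1 and 2 alone that fit called 6 genes (0.0384%), the 7 without Lpcat3.

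Ddit3, the stress transcription factor CHOP, had 17.4, 17.2 and 25.0 CPM in control replicates 1, 2 and 3 and 16.1, 18.3 and 133 CPM with GW3965. With CT99021 it had 22.2, 23.4 and 25.4 CPM, and with both compounds 20.7, 22.6 and 127 CPM. Both libraries numbered 3 that had GW3965 stood apart from the other 10. The added log2 effect in number 3 was 2.42 ± 0.16 (edgeR adjusted p = 3.6e-05), against -0.04 ± 0.09 in numbers 1 and 2. Chac1, which degrades glutathione, had an added effect of 3.97 ± 0.26, Trib3, a pseudokinase, 3.17 ± 0.22, and Asns, asparagine synthetase, 2.32 ± 0.25. Asns had 307 CPM and 328 CPM in these 2 libraries and at most 141 CPM in the other 10. In the main effect over all 12 libraries, 0 of the 12 stress genes passed and their median was 0.51. In the fit without the libraries numbered 3 that median was -0.05.

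**Figure D5:**
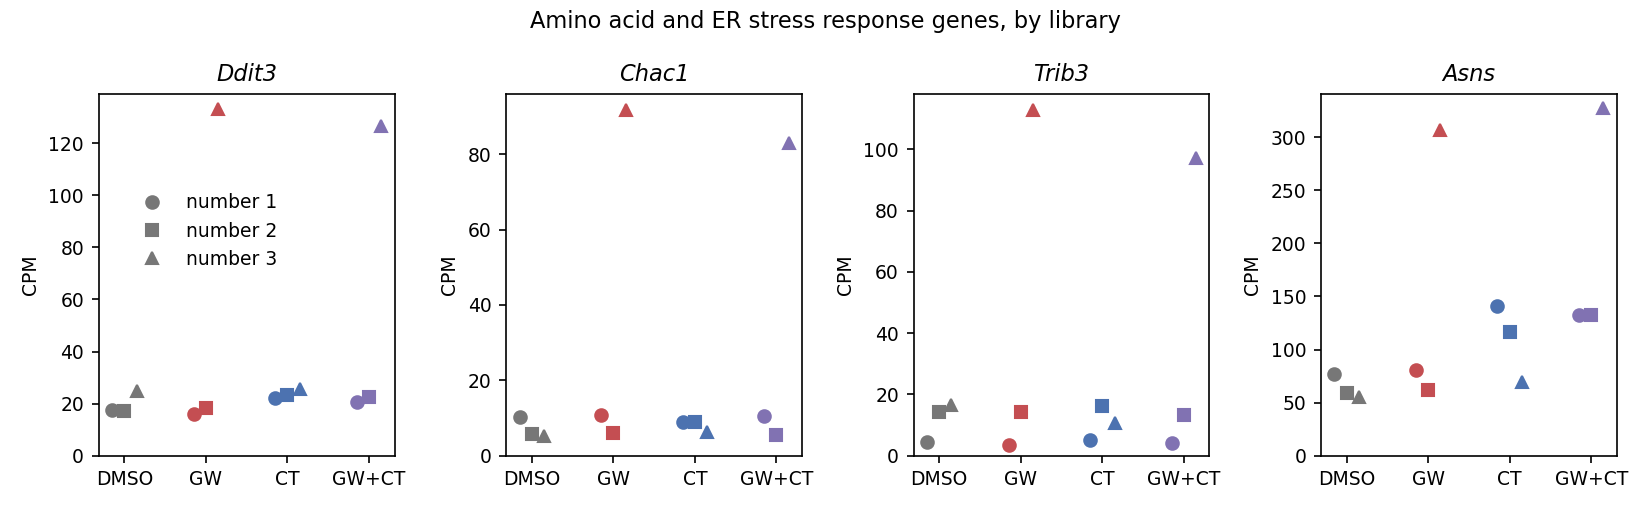
CPM of 4 stress response genes in each library by group (DMSO, GW, CT and GW+CT), on linear axes from 0, with a marker for the replicate number. In each panel both libraries numbered 3 with GW3965 lie above all others, at 133 CPM and 127 CPM for Ddit3.

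Other lists were uneven across the numbers. Of 12 immediate early genes 0 passed in the main effect, and their median log2 ratios in number 3 were 0.94 without and 0.78 with CT99021, against -0.19 to 0.03 in the other pairs. The term for number 3 called 6 of the 12, all higher, and without the libraries numbered 3 the list's median turned from 0.22 to -0.10. DNA replication genes (14 tested, 0 past the test, median -0.15) had -0.49 and -0.35 in number 3, and 1 of the 14 passed the test of that difference. Mitosis genes (18 tested, 0 past the test) had -0.45 and -0.26, and 0 of the 18 passed the test of the difference. All 18 had a negative log2 fold change in the main effect, and 10 had a positive one without the libraries numbered 3. The 4 libraries of number 3 also stood apart in the 1st principal component, which held 49.7% of the variance. What the number stands for is not given in the sources used here, and its part in these values was not tested beyond the fits above.

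Neural identity genes had no member past the test with GW3965. That was so for neural progenitors (15 tested, median -0.06), proneural factors (5, 0.04, and -0.05 without the libraries numbered 3), pan-neuronal genes (13, 0.02), floor plate and dopaminergic progenitors (16, -0.00126, and 0.05 without GW3965+CT99021 replicate 2) and dopaminergic neurons (10, -0.08). Nes had 0.07 ± 0.08, Sox2 -0.04 ± 0.05, Lmx1a -0.11 ± 0.14, Foxa2 -0.04 ± 0.09 and Nr4a2, a transcription factor of dopaminergic neurons, -0.07 ± 0.12. Inflammatory genes (10 tested, 0.09) and glycolysis and hypoxia genes (14 tested, -0.03, and 0.05 without the libraries numbered 3) likewise had 0 past the test.

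Markers of other cell types were present, and 0 of them passed the test. Erythroid genes summed to 3418 to 13403 CPM without and 2376 to 10753 CPM with GW3965. All 8 tested members had a negative log2 fold change (median -0.27, 6 at an unadjusted p under 0.05). Over all 15608 genes 7922 were negative, and 518 (3.32%) were lower at that p. The list's median in the single pairs ran from -0.66 to 0.05. How reads shared between these rows were counted is not stated either. Mesenchyme and pericyte genes summed to 252 to 4109 CPM without and 268 to 3385 CPM with GW3965 (11 tested, median 0.09). Their median was -0.18 without and 0.40 with CT99021, and without GW3965+CT99021 replicate 2 the median over both turned to -0.08, with 8 of 11 negative. Endothelial genes ran from 41.7 to 55.7 CPM and from 42.1 to 79.1 CPM (8 tested, 0.22), microglia and macrophage genes from 24.0 to 51.3 CPM and from 17.2 to 42.5 CPM (9 tested, -0.27), and oligodendrocyte lineage genes from 49.6 to 211 CPM and from 35.2 to 166 CPM (8 tested, -0.11, and 0.02 without the libraries numbered 3). No listed marker with a row in the counts was at 0 in all libraries. Hba-a1, Hba-a2 and, of the pan-neuronal list, Map2 had no row under these names. The part of these cells in the results above was not tested.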

How the data were processed

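The authors deposited raw read counts per gene for the 12 libraries, whole numbers with no normalization. The submitters' processing notes name Bowtie and mm9. The sources used here do not give the counting program, strand use or handling of multi-mapping reads, and the base of the listed positions is not stated. Repeat families (1217 rows, 0.196% to 0.643% of all counts) were left out of library sizes and tests, and 23965 gene rows remained. All 12 libraries entered 1 fit with edgeR 4.0.16 in R 4.3.3 (TMM factors, filterByExpr by group, quasi-likelihood F test, 15608 genes tested) with additive terms for GW3965, CT99021 and replicate number. Contrasts within a background and the interaction came from a fit with a mean per group plus replicate number. The labels give the number but not its meaning: deviations of same-numbered libraries correlated (r = 0.496 to 0.828), and each of the 12 was closest to its own number. A gene passed at an adjusted p under 0.05. SE is the log2 fold change over the root of F. Pair ratios use a prior count of 2. Alternatives were DESeq2 1.42.0, limma 3.58.1 (voom), other factors and filters, and left-out libraries. The fit was tried on counts simulated from its own additive model. These held no difference in the GW3965 effect between replicate numbers, so that trial does not cover such a difference. Libraries of a group all differed by more than sampling noise (chi-square per gene 28.2 to 136).

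Named genes were up to 15 each way among called genes at 1 CPM or more that moved alike in 6 of 6 pairs, measured LXR targets, 10 listed lipid, receptor and Wnt genes, and members of the 23 lists, of which a few are not reported here; other genes, among them those ranked 8 to 20 by p, were chosen after their values were seen. Members and lists were chosen with earlier results of these data known.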

Additional observations from a re-analysis of the deposited data

Results flagged for a closer look

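The effect of GW3965 differed between the libraries numbered 3 and the others in 465 genes by a test of that difference (edgeR, 2.98% of 15608), among them Gpt2, an alanine aminotransferase gene chosen after its values were seen, with an added log2 effect of 2.28 ± 0.11 (adjusted p = 7.667e-06). In a test over all 3 numbers 145 genes differed (0.929%).

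Single pairs stood apart from the other 5 in 3 of 43 sets of 6 pairs, and chance flags about 1 in 20. Mir5114 had a log2 ratio of 1.67 in the pair with CT99021 numbered 2, against 0.64 to 0.913 in the other pairs. Its counts were 1.80% of those of Scd2 in CT99021 replicate 2 and 4.003% in GW3965+CT99021 replicate 2. That share was 3.60% to 3.94% in the libraries numbered 3 and 1.60% to 1.85% in the rest, so only this pair joins the 2 levels. What set these libraries apart was not tested. The median log2 ratio of the Wnt target genes was -0.499 in the pair without CT99021 numbered 3, against -0.184 to 0.00216. The median of the microglia and macrophage genes was -0.903 in the pair with CT99021 numbered 3, against -0.246 to 0.109.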

How the results depend on the processing

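The main count of 7 became 2 with no replicate block, 12 with DESeq2, 11 with limma-voom and sample weights, 10 with library totals only, 5 without the libraries numbered 3 (Scd1 and Lpcat3 lost), 4 with the Scd rows summed (added after the data were seen) and 6 to 7 when any 1 library was left out. In GW3965 against control, 3 became 0 with no replicate block (23 at an unadjusted p under 0.05) and 7 with DESeq2. It became 11 with sample weights, 5 with no filter, and 1 to 5 when a library was left out. The count was 1 without control replicate 2 or 3, and 5 without CT99021 replicate 3. In GW3965+CT99021 against CT99021, 3 became 0 with no replicate block (165 at an unadjusted p under 0.05), 13 with DESeq2, 9 without the libraries numbered 3, 90 in 7 libraries, and 2 to 10 when a library was left out, with 10 without GW3965+CT99021 replicate 3. The interaction count of 0 became 60 in 7 libraries. The 4 LXR targets past the test became 2 with no replicate block and 3 to 4 when a library was left out. The fit in 7 libraries left out number 3 and GW3965+CT99021 replicate 2 and kept a single library with both compounds. It cannot show how far libraries with both compounds spread. No conclusion is therefore drawn from its counts for GW3965+CT99021 against CT99021 and for the interaction. The cause of the changes in count across these fits was not tested. No log2 fold change of a called gene changed sign in these fits. Medians of gene lists did, among them those of stress, immediate early and mitosis genes without the libraries numbered 3. A median SE of 0.0905 limits how small a change could pass.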
